A study of Homo sapiens with 4 samples.

Results

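The mitochondrial ribosomal proteins were examined in the RNA of MV4-11 cells after knockdown of the transcription factor IRF1. They were taken as the protein-coding genes whose symbol begins with MRPL or MRPS followed by digits, with an optional A or B and without pseudogenes. By this rule 77 of the 23622 genes in the deposited table were members, 51 of them proteins of the large subunit and 25 of the small subunit. MRPS36 carries the family's name but is known as a component of the oxoglutarate dehydrogenase complex, and was counted in neither subunit.

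Mitochondria keep a small genome of their own, and the mitochondrial ribosome translates its messages into core subunits of the respiratory chain. The RNA of this ribosome is copied from mitochondrial DNA, whereas every protein of it is encoded in the nucleus, made in the cytosol and imported. Some of these proteins descend from those of bacterial ribosomes, and others have no bacterial counterpart and cover the shrunken RNA core. Acute myeloid leukemia cells are known to depend on mitochondrial translation and respiration.

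MV4-11 is a human acute myeloid leukemia cell line with monocytic features. RNA was sequenced from 2 libraries labelled NC and from 2 libraries labelled sh-IRF1. The labels describe the NC libraries as untreated, whereas their deposited values are headed sh_NC and the study treats these libraries as carriers of a control hairpin. Cells of the sh-IRF1 libraries expressed a short hairpin RNA against IRF1 from a lentiviral vector. According to the study's methods, transduced cells were selected with puromycin and collected days later, and the hairpin behind each sh-IRF1 library was not named. Nothing in the labels says that the libraries of a group came from separate cultures, so p-values measure the spread between these libraries, which may be technical.

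Values are normalized counts, the reads of a gene divided by 1 size factor per library, and depth ran from 17635908 to 18695337 reads per library. Fold changes are sh-IRF1 over NC on log2(normalized count + 1), on which genes with low counts appear to change less than they did. The limma test covered the 14120 genes that reached a normalized count of 10 in at least 2 libraries, and a call means a Benjamini-Hochberg adjusted p under 0.05. With 2 libraries against 2, an exact permutation test cannot give a p below 0.333. IRF1, the targeted gene, stood at 785 and 738 in NC and at 430 and 432 in sh-IRF1 (log2 fold change -0.82, limma, adjusted p = 1.69e-10). All 9 markers listed for a monocytic leukemia line had values, with a summed normalized count of 39504 and 39109 in NC and of 36635 and 36428 in sh-IRF1. That sum was mostly FLT3 and CD4, and 4 of the 9 were called lower and 3 higher by limma: CD14 stood at 16.0% and MPO at 37.3% of the NC mean, ITGAM at 154% and LYZ at 180%. Of 11 markers of T, B, erythroid and epithelial cells, 6 were not analysed here, and the other 5 summed to 429 and 372 in NC and to 627 and 650 in sh-IRF1. CD8A was at 0 in both sh-IRF1 libraries, whereas the B cell gene CD79A went from 50.3 and 43.1 to 190 and 250, and the part of such differences in the results below was not tested.

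The stretches just before the transcription start of the members that moved most are shown because they are the regions a DNA-binding factor such as IRF1 would meet. They are the 100 bases before the RefSeq start (GRCh38.p14), read 5′ to 3′ on the strand of the gene, of those among the 8 most lowered and 3 raised members in which at most 30 of these bases are annotated as exon. The intervals are chr2:27771619-27771718 for MRPL33, chr17:75012570-75012669 for MRPL58, chr21:34073478-34073577 for MRPS6, chr20:3045952-3046051 for MRPS26, chr1:150293761-150293860 for MRPS21, chr22:19432445-19432544 for MRPL40 and chr1:54200067-54200166 for MRPL37, all on the plus strand. Capitals mark the letters CCGGAAG, or CTTCCGG where they lie on the other strand, which form the core recognized by ETS family factors.
MRPL33: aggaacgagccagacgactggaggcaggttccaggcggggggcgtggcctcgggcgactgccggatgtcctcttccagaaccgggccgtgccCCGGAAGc
MRPL58: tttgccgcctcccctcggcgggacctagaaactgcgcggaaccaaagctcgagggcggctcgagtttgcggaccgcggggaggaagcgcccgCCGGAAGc
MRPS6: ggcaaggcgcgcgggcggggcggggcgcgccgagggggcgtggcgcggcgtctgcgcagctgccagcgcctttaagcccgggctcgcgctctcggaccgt
MRPS26: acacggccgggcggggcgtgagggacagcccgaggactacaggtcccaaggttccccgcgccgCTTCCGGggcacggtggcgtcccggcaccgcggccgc
MRPS21: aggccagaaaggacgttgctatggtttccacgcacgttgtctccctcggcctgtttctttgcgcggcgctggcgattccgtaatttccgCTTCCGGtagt
MRPL40: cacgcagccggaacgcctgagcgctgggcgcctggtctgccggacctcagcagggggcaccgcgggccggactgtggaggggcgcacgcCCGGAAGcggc
MRPL37: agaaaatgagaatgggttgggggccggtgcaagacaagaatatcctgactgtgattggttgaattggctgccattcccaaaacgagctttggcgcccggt

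In these stretches the letters stood 8 bases before the start in both MRPL33 and MRPL58, and 11 bases before it in MRPS21 and MRPL40. They are absent from those of MRPS6 and MRPL37. A RefSeq promoter was found for 68 of the 77 members, and 5 strings of letters were searched on both strands of the 250 bases before the start. The ETS core CCGGAAG was in 22 of the 68, or 32.4%, against 8.82% of all 27305 promoters and 16.7% of those of tested genes. Its share was 39.1% among the 23 lowered members with a promoter and 31.7% among the 41 that were not called, and 0 of the 3 raised members held it. The E-box CACGTG is recognized by MYC and its relatives. It was in 7.35% of the members' promoters, between the 6.49% of all promoters and the 9.10% of those of tested genes. By call, 3 of the 23 lowered members, 1 of the 3 raised and 1 of the 41 not called held the E-box. The NRF1 core GCGCATGCG was in 2 members, MRPL17 and MRPL22, or 2.94%. This share lay between the 1.78% of all promoters and the 3.34% of those of tested genes. Both members were called lower, and 0 of the 41 not called held this core. The letters GAAANNGAA of the interferon-stimulated response element are the kind of site IRF factors recognize. They were in 7 members, or 10.3%, against 7.06% of all promoters and 5.62% of those of tested genes. These letters were in 4 of the 23 lowered members, 3 of the 41 not called and 0 of the 3 raised. With a further A at the end they remained in MRPL36 and MRPL50, or 2.94%, between the 2.43% of promoters of tested genes and the 3.07% of all promoters. Apart from this pair of nested strings, matches to different strings overlapped in 0 members. The counts by call are small, and whether lowered members differed from the others in any string was not tested. A match describes the letters and is not a bound site.

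More members were lower than higher after IRF1 knockdown, by small amounts. Of the 76 members tested, 25 were called lower in sh-IRF1, or 32.9%, against 21.9% of all genes tested. Only 3 were called higher, or 3.95%, against 20.3% of all genes, and 48 were not called. The median log2 fold change of the tested members was -0.11, against -0.0019 over all tested genes, and 53 members lay below 0 and 23 above it. Lowered members kept between 62.0% and 88.0% of their NC level, and raised members reached between 108% and 145%. The median absolute log2 fold change was 0.18 over the members and 0.26 over all genes.

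**Figure D1:**
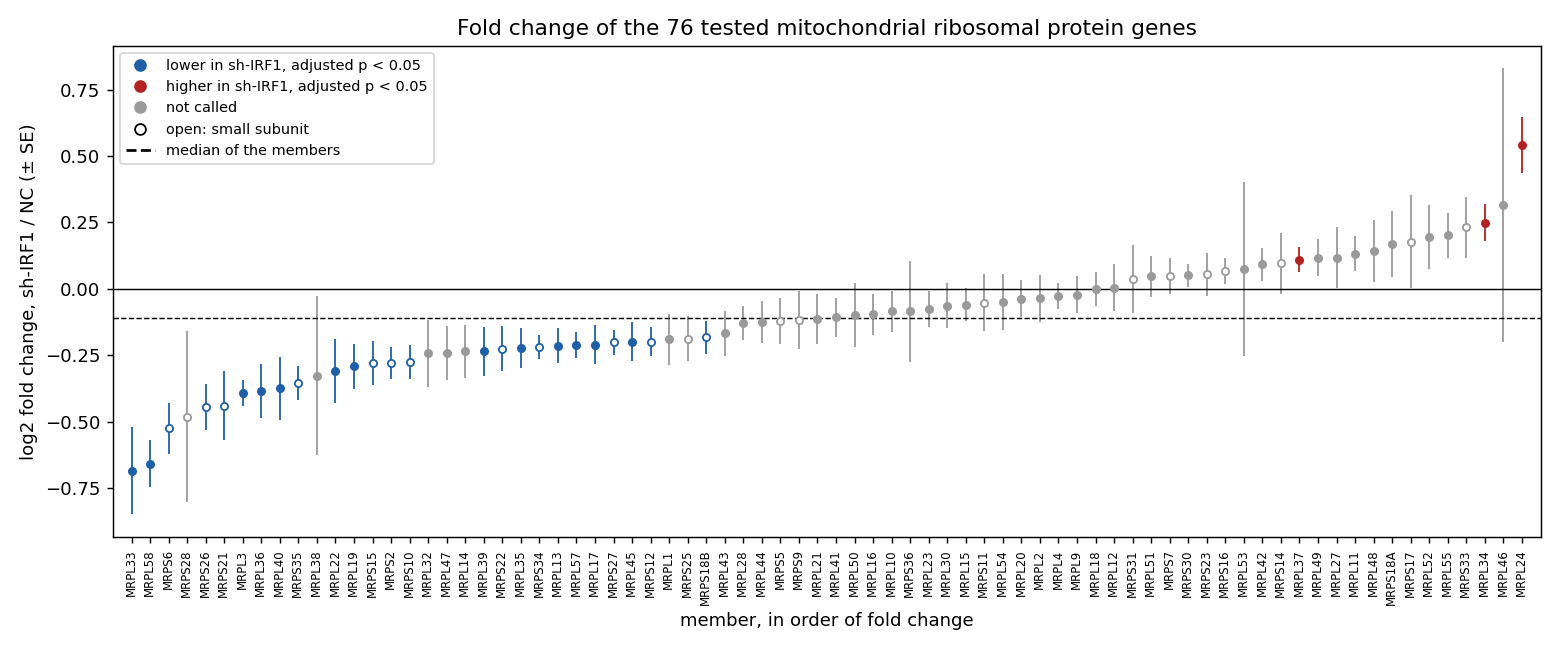
Log2 fold change (vertical axis, sh-IRF1 over NC, whiskers ± SE from limma) of the 76 tested members in order of size, with lowered members in blue, raised members in red, members not called in grey and small-subunit members as open points. The 25 lowered members fill most of the left side, with 3 below -0.5, while the 3 raised members are spread over the right side and the dashed median lies at -0.11.

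The shift showed in each sh-IRF1 library to a different degree. Together the 77 members summed to 69382 and 68102 normalized counts in NC and to 64828 and 62910 in sh-IRF1, so both knockdown libraries lay below both controls. The sums were 68742 ± 906 (SD, n = 2) in NC and 63869 ± 1356 (SD, n = 2) in sh-IRF1, or 92.9% of the control sum. In reads, the members took 0.384% and 0.376% of the NC libraries and 0.368% and 0.359% of the sh-IRF1 libraries. The median distance of a tested member from its NC mean was -0.071 on the log2 scale in sh-IRF1 replicate 1 and -0.16 in sh-IRF1 replicate 2, and 39 of the 76 had their lowest value in the latter.

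The count of lowered members rested in part on that library. Without sh-IRF1 replicate 2, which leaves 1 library in that group, limma called fewer members lower, all of them among the 25. Fewer of all genes were called lower as well, and the excess of lowered members over all genes was smaller. The members' median was then -0.071, against 0.0044 over all genes. Without sh-IRF1 replicate 1 the members' median was -0.16, against 0.0026 over all genes. Scaled by total reads instead of the authors' size factors, which raised the median of all genes by 0.044 to 0.042, 18 members were lower and 6 higher, beside 18.7% and 24.3% of all genes. The lower share of the members' calls then went from 89.3% to 75.0%, and that of all genes' calls stood at 43.6%. Without NC replicate 1, fewer members were called lower and more higher than with every library. The members' median was then -0.098, against -0.0024 over all genes.

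MRPL33, MRPL58 and MRPS6, which are 3 of the 76 members tested, passed both the test and a log2 fold change below -0.5, where 7.56% of all genes tested did. Of these MRPL33, a small protein of the large subunit with a bacterial counterpart, had the largest fall. Its normalized counts were 245 and 201 in NC and 150 and 126 in sh-IRF1. The knockdown libraries lay below both controls, although the NC libraries stood apart from each other by 43.8. The log2 fold change was -0.68 (SE 0.16, limma, adjusted p = 0.000617). MRPL33 lies on chromosome 2 from 27771717 to 27988087 and shares 21.1% of its exonic bases with BABAM2, which was at 732 and 708 in NC and at 756 and 745 in sh-IRF1.

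MRPL58, also known as ICT1, is a peptidyl-tRNA hydrolase that sits in the central protuberance of the large subunit and can release stalled chains. It stood at 752 and 764 in NC and at 492 and 468 in sh-IRF1, which is 63.3% of the NC mean. The groups were far apart next to the gap within each, and the log2 fold change was -0.66 (SE 0.088, limma, adjusted p = 2.19e-08). Its gene lies on chromosome 17 from 75012670 to 75021261 and shares no exonic base with another gene. MRPS6, a small-subunit protein with a bacterial counterpart, lies on chromosome 21 from 34073224 to 34143034. It went from 593 and 619 to 425 and 417, without overlap, a log2 fold change of -0.53 (SE 0.096, limma, adjusted p = 1.19e-05).

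MRPL24 moved the other way, and was the single member raised beyond 0.5, where 8.27% of all genes were. It encodes a large-subunit protein near the exit of the tunnel through which new chains leave, on chromosome 1 from 156737303 to 156741590. Its normalized counts were 333 and 389 in NC and 525 and 524 in sh-IRF1. Both knockdown libraries lay above both controls and close to each other, at 145% of the NC mean. The log2 fold change was 0.54 (SE 0.11, limma, adjusted p = 3.46e-05), and it was 0.43 without NC replicate 1, the lower of the controls.

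**Figure D2:**
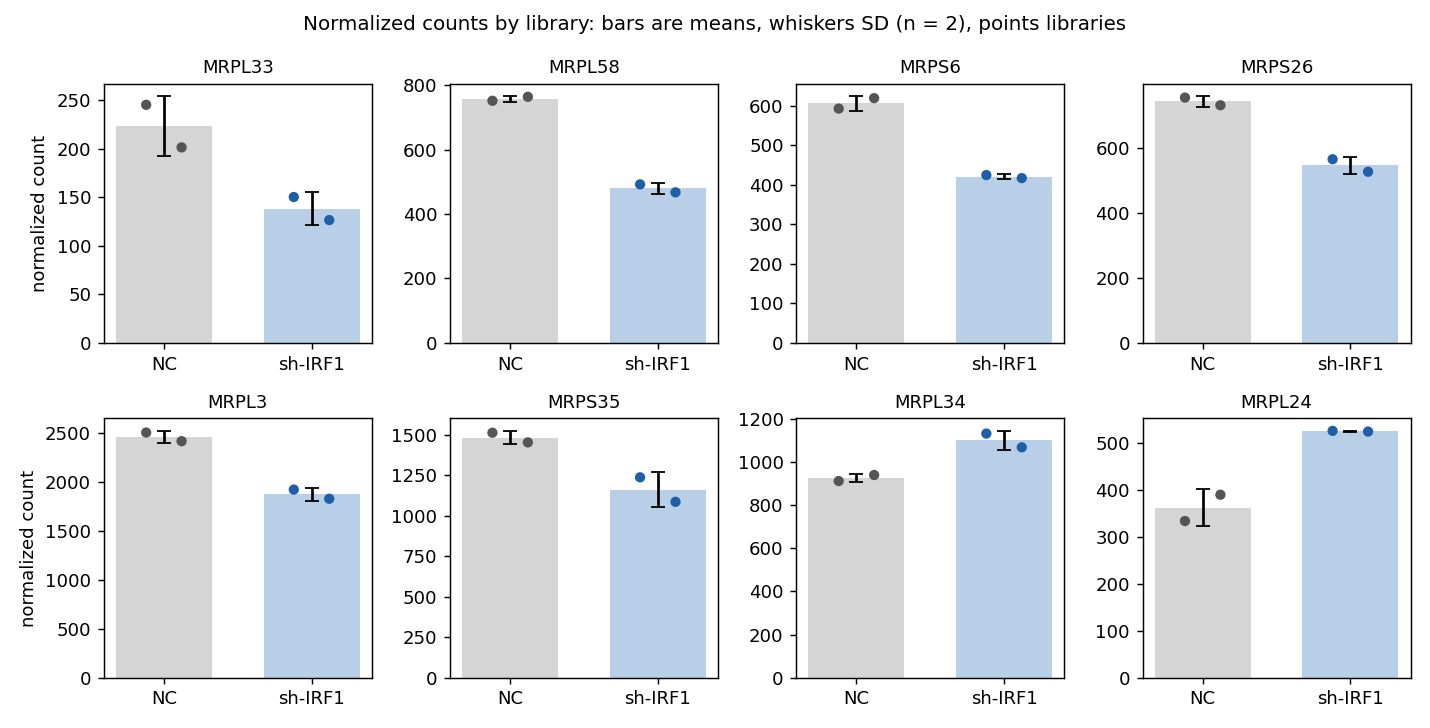
Normalized counts (vertical axis, each panel on its own scale from 0) of 8 members in the NC and sh-IRF1 libraries, where bars are group means, whiskers the SD (n = 2) and points the libraries. The points of the groups do not overlap in any panel, and MRPL34 and MRPL24 are the panels in which sh-IRF1 is higher.

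Among the other lowered proteins of the large subunit, MRPL3 belongs to the conserved core and went from 2501 and 2413 in NC to 1919 and 1825 in sh-IRF1 (log2 fold change -0.39, SE 0.050, limma, adjusted p = 7.65e-09). MRPL36, a small protein with a bacterial counterpart, went from 572 and 518 to 443 and 392 (log2 fold change -0.39, limma, adjusted p = 0.00162). MRPL40, a protein of the central protuberance, went from 374 and 400 to 318 and 279 (log2 fold change -0.37, limma, adjusted p = 0.00849). In all of these the knockdown libraries were below the controls. Without sh-IRF1 replicate 2, MRPL36 (limma, adjusted p = 0.0646) and MRPL40 (limma, adjusted p = 0.135) were not called, and MRPL40 was not called without NC replicate 2 either (limma, adjusted p = 0.0592). Of the 51 large-subunit members, 13 were called lower and 3 higher, with a median log2 fold change of -0.085. The lower share of 25.5% was close to the 21.9% of all genes, and the higher share of 5.88% was below their 20.3%. Their normalized counts summed to 44948 ± 990 (SD, n = 2) in NC and to 42718 ± 920 (SD, n = 2) in sh-IRF1, or 95.0%.

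In the small subunit, 12 of the 24 members tested were called lower and 0 higher by limma, with a median of -0.19. These shares of 50% and 0% stood beside 21.9% and 20.3% of all genes tested. At an unadjusted limma p under 0.05, 1 was higher, MRPS33 at 354 and 335 in NC and 436 and 375 in sh-IRF1, and edgeR and DESeq2 called 0 higher. The summed normalized counts were 23668 ± 93.4 (SD, n = 2) in NC and 21032 ± 445 (SD, n = 2) in sh-IRF1, or 88.9%. MRPS26, which has no bacterial counterpart, stood at 756 and 732 in NC and at 566 and 528 in sh-IRF1 (log2 fold change -0.44, limma, adjusted p = 3.12e-05). MRPS21 has a bacterial counterpart and went from 327 and 346 to 277 and 222 (log2 fold change -0.44, limma, adjusted p = 0.00504). For both genes the groups were apart, but the sh-IRF1 libraries of MRPS21 differed from each other by more than its NC libraries did. Without sh-IRF1 replicate 2 the log2 fold change of MRPS21 was -0.28 and it was not called (limma, adjusted p = 0.160). MRPS35, a mitochondria-specific protein, went from 1514 and 1454 to 1238 and 1087 (log2 fold change -0.35, limma, adjusted p = 1.06e-05). MRPS12, a protein of the decoding site, went from 1680 and 1707 to 1475 and 1476, and MRPS2 from 1435 and 1533 to 1233 and 1212, and both were called lower. Whether the subunits differed in their response was not tested.

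Raised members were few and mostly slight. MRPL34, a small large-subunit protein with a bacterial counterpart, went from 912 and 940 in NC to 1132 and 1068 in sh-IRF1. Its groups were apart and its log2 fold change was 0.25 (SE 0.069, limma, adjusted p = 0.00301), a call that was lost without sh-IRF1 replicate 1. MRPL37, a mitochondria-specific protein, went from 2547 and 2505 to 2769 and 2684, which is 0.11 on the log2 scale (SE 0.046, limma, adjusted p = 0.0485). This call lay at the threshold and did not hold when any of the 4 libraries was left out.

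The counts by origin were close to each other. Of the 44 tested members with a bacterial counterpart, 14 were called lower and 2 higher, or 31.8% and 4.55%, with a median log2 fold change of -0.11. Of the 31 mitochondria-specific members, 11 were called lower and 1 higher, or 35.5% and 3.23%, also with a median of -0.11. Over all genes tested the shares were 21.9% and 20.3%. Proteins that sit together in the large subunit did not all move alike. Of the 6 proteins at the tunnel exit, 3 were called lower and 1, MRPL24, higher, or 50% and 16.7%, with a range from -0.31 to 0.54. The one lowered with the smallest p was MRPL17, at 967 and 973 in NC and 880 and 798 in sh-IRF1. MRPL45, which ties the ribosome to the inner membrane, was also lowered there, at 1055 and 940 against 863 and 870. Neither call was firm: MRPL17 was not called under total reads scaling, in DESeq2, or without NC replicate 2 or sh-IRF1 replicate 2 (log2 fold change -0.14 without the latter). MRPL45 was not called under total reads scaling, in DESeq2, or without either sh-IRF1 library or NC replicate 1 (-0.12 without the latter, against -0.20 with all libraries).

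In the central protuberance, MRPL58 and MRPL40 were called lower, or 28.6% against 21.9% of all genes, and 5 of the 7 members were not called. The median was -0.00083 and the range ran from -0.66 to 0.31. MRPL48, the one above 0 with the smallest p, stood at 382 and 317 in NC and at 408 and 363 in sh-IRF1, and its groups overlapped. None of the 3 proteins of the stalk, where translation factors bind, was called by limma, edgeR or DESeq2 or had an unadjusted limma p under 0.05, and their log2 fold changes ran from -0.085 for MRPL10 to 0.13 for MRPL11. MRPL10 stood at 856 and 885 in NC and at 863 and 780 in sh-IRF1, and MRPL11 at 1157 and 1064 against 1220 and 1212. MRPL12, which is also known to bind the mitochondrial RNA polymerase, stood at 674 and 569 in NC and at 617 and 626 in sh-IRF1, so its groups overlapped. MRPL12 shares 69.5% of its exonic bases with an overlapping gene on the same strand.

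The levels of the members, unlike their changes, spanned a wide range. Per kb of exon, the highest NC mean was 2619 normalized counts for MRPS34, followed by 1598 for MRPL41 and 1208 for MRPL57. The median of the tested members was 313 per kb. MRPS34, a mitochondria-specific protein of the small subunit, was also called lower, with normalized counts of 2798 and 2922 in NC and of 2493 and 2422 in sh-IRF1. MRPL57 was called lower as well, from 2773 and 2624 to 2384 and 2275, whereas MRPL41, at 947 and 913 against 892 and 835, was not called. The order of the levels was nearly the same in both groups, with a Spearman correlation of 0.98 across the 76 tested members, which share their lengths and libraries. Across the same genes the fold change had a correlation of -0.065 with the NC level.

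At the low end stood MRPL38 at 17.7, MRPL46 at 2.33 and MRPS24 at 0.59 normalized counts per kb in NC. MRPS24 was the single member that did not pass the filter, with 0 and 3 reads in the NC libraries and 1 and 4 in the sh-IRF1 libraries, and a count of 0 allows up to 3 reads. It shares 23.2% of its exonic bases with the readthrough gene URGCP-MRPS24, whose reads were not analysed here. MRPL46 had 11.3 and 18.5 normalized counts in NC and 16.9 and 19.7 in sh-IRF1, and MRPL38 had 73.9 and 44.2 against 47.7 and 43.1. The groups of both overlapped. In all, 4 tested members had normalized counts under 100 in every library, where a change of the size seen elsewhere could not be detected: for MRPS28, a log2 fold change of -0.48 came with an SE of 0.32 (limma, adjusted p = 0.238).

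**Figure D3:**
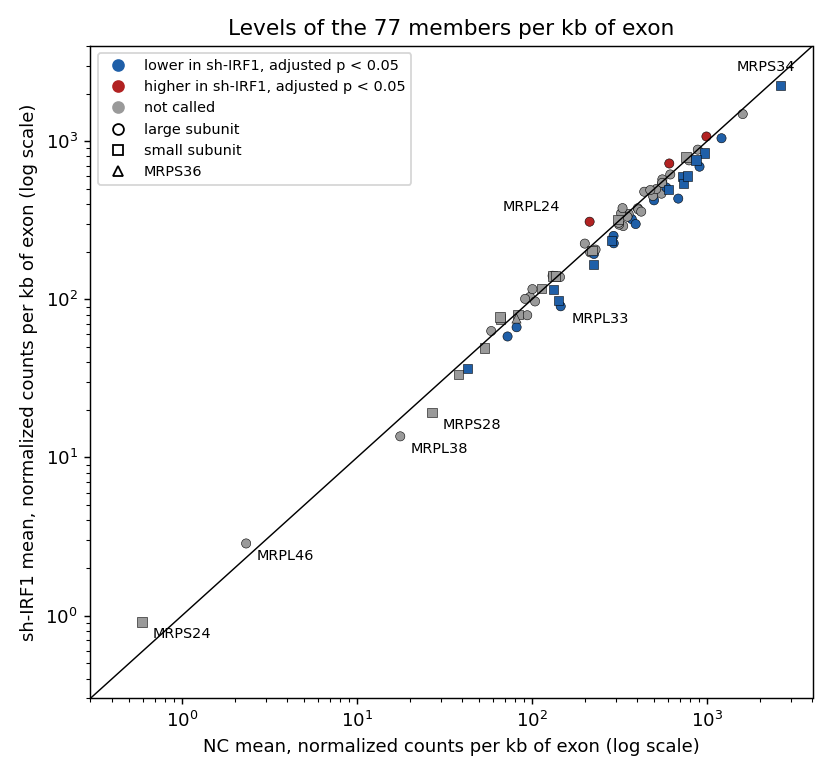
Mean normalized counts per kb of exon in NC (horizontal axis) and sh-IRF1 (vertical axis), both on a log scale, for all 77 members, with the line of equality, circles for the large subunit, squares for the small subunit and a triangle for MRPS36. The members lie along the line over a range from 0.59 for MRPS24 to 2619 for MRPS34 in NC, and most of the lowered members sit just below it.

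Counted without any statistical model, 40 of the 76 members had both sh-IRF1 libraries below both NC libraries, where 35.0% of all genes tested did. Another 12 had both above, where 34.2% of all genes did. These are 52.6% and 15.8% of the members. All 28 called members were without overlap between the groups, which a call with so few libraries favours and which adds no support to the calls.

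Overlapping genes limit some of these values, since it is not given whether reads were counted by strand. Of the 77 members, 28 share over 10% of their exonic bases with another gene, 12 of them mainly with one on the same strand and 16 with one on the opposite strand. MRPL53 shares 99.4%, at 40.0 and 40.1 normalized counts in NC and 33.8 and 52.5 in sh-IRF1. MRPS22 shares 42.8%, mainly with the antisense COPB2, which was at 2560 and 2734 in NC and 2248 and 2198 in sh-IRF1, while MRPS22 went from 687 and 708 to 589 and 604 and was called lower, a call that did not hold when any library was left out. Among the 49 members that share at most 10%, 20 were called lower and 2 higher, or 40.8% and 4.08%, against 21.9% and 20.3% of all genes tested. The 10 pseudogenes of the family in the table reached at most 12.3 normalized counts each. MRPS18C, a small-subunit protein whose symbol falls outside the rule, had 47.2 and 30.8 in NC and 35.8 and 23.4 in sh-IRF1 and was not called.

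Several members share a promoter region with a neighbour that is read in the opposite direction. The start of 16 members lay within 1000 bases of the start of such a protein-coding gene upstream of it. Pairs that overlap each other at their starts were not counted. Of the 16 members, 3 were called lower, or 18.8% against 21.9% of all genes. In limma 0 were called higher, against 20.3% of all genes, and likewise 0 in edgeR, DESeq2 and at an unadjusted limma p under 0.05. Of their neighbours, 4 were called lower and 2 higher. In 1 of the pairs both genes were called the same way: MRPL57 and SKA3, a kinetochore protein, which went from 2000 and 1982 to 1626 and 1810. The start of MRPL47 lies 41 bases from that of NDUFB5, a complex I subunit. NDUFB5 went from 1024 and 961 in NC to 426 and 404 in sh-IRF1 (log2 fold change -1.26, limma, adjusted p = 6.23e-17), whereas MRPL47 stood at 589 and 559 against 554 and 424 and was not called (limma, adjusted p = 0.0528). MRPL46 and MRPS11 form a pair of members that start 63 bases apart, and neither was called.

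Other genes of mitochondrial translation were counted for comparison. Of 5 further ribosomal subunits with other names, 2 were called lower and 1 higher, or 40% and 20%, beside 21.9% and 20.3% of all genes. DAP3, a GTP-binding protein of the small subunit, went from 1549 and 1517 to 1241 and 1235, and PTCD3, an RNA-binding protein of the small subunit, from 1670 and 1699 to 1411 and 1384. AURKAIP1 rose from 1772 and 1638 to 1976 and 2013, while CHCHD1 and GADD45GIP1 were not called. Counts of the RNA of the ribosome itself, read from mitochondrial DNA, were lower in both subunits. The study's methods do not say how RNA was selected for sequencing, which bears on these counts. MT-RNR2 of the large subunit fell from 98084 and 101360 to 75043 and 74542, a log2 fold change of -0.41 (limma, adjusted p = 5.56e-24), and MT-RNR1 of the small subunit had one of -0.33 (limma, adjusted p = 4.55e-12).

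Of 26 factors that assemble the ribosome, 6 were called lower and 5 higher, with a median log2 fold change of -0.044. These shares of 23.1% and 19.2% were close to the 21.9% and 20.3% of all genes. The helicase DDX28 (-0.30) and the methyltransferase MRM1 (-0.51) were lower, and RCC1L (0.18) and MPV17L2 (0.31) were higher. These counts were small and moved with the library left out, to between 2 and 6 lower and between 1 and 4 higher. Of 17 translation factors and related proteins, 7 were lower and 1, the release factor MTRF1 at 0.41, higher, with a median of -0.19. These shares of 41.2% and 5.88% stood beside the same 21.9% and 20.3%. The call of MTRF1 did not hold when any of the 4 libraries was left out. LRPPRC, which stabilizes mitochondrial messages, fell from 10507 and 10415 to 7467 and 7663, and TUFM, the elongation factor that delivers tRNA, had a log2 fold change of -0.18. Of 11 genes that transcribe or copy mitochondrial DNA, 4 were lower by limma, or 36.4% against 21.9% of all genes. By limma, edgeR, DESeq2 or an unadjusted limma p under 0.05, 0 were higher, where limma called 20.3% of all genes. TFB2M stood at -0.64 and TFAM at -0.22, and fewer of the 11 were called lower without sh-IRF1 replicate 1.

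**Figure D4:**
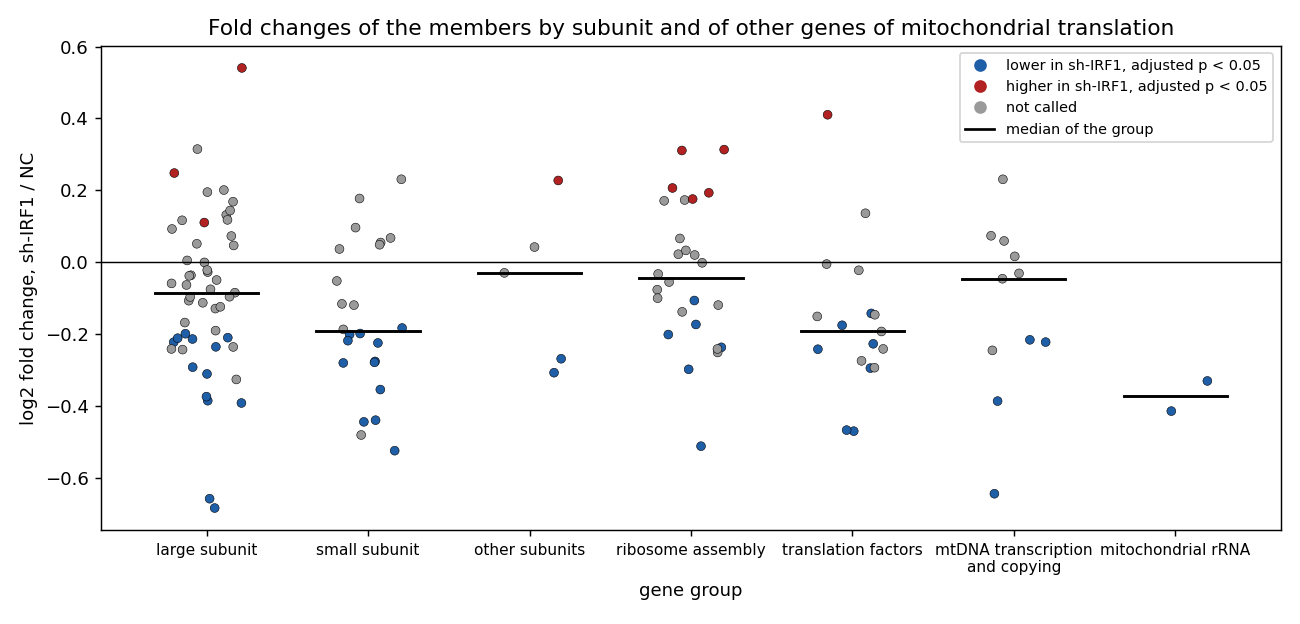
Log2 fold change (vertical axis, sh-IRF1 over NC) of each tested member by subunit and of the genes of 5 other lists, with called genes in blue (lower) or red (higher), genes not called in grey and a bar at each group's median. The medians were -0.085 for the large subunit, -0.19 for the small subunit and -0.19 for the translation factors, and both ribosomal RNAs lie below 0.

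MYC, whose product is known to drive ribosome and mitochondrial genes, went from 14198 and 14561 in NC to 7380 and 7348 in sh-IRF1 (log2 fold change -0.97, limma, adjusted p = 1.03e-29). Its part in the fall of the members was not tested. In bulk RNA, less RNA of these genes per cell and fewer cells of a kind that express them cannot be told apart.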

How the data were processed

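RNA-seq values of 4 MV4-11 libraries were used. Per the labels, the submitters' processing notes name HISAT2 2.0.5 and the genome build hg38, and the study's methods name FPKM and DESeq2. The counting tool, annotation and use of strand are not given in the sources used here. The authors deposited a normalized signal, in which gene reads were divided by a single size factor for the library. All values were whole multiples of a step per library (100% within a tolerance of 0.01 read), so reads were recovered for the count tests. For sh-IRF1 replicate 1 the step was 0.995.

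Of 23622 identifiers, 23456 matched a symbol. Coordinates, exon lengths and overlaps came from GENCODE 44 (GRCh38) and promoters from RefSeq. The test was limma 3.58.1 in R 4.3.3 on log2(value + 1), with a variance trend, robust shrinkage and Benjamini-Hochberg adjustment over 14120 genes. Scripts were tested on simulated data. Alternatives were edgeR 4.0.16, DESeq2 1.42.0, other scalings, pseudocounts and filters, a replicate block and each library left out.

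Members and gene lists were chosen with earlier results of these data known. Members named singly were those called beyond 0.5 on the log2 scale, those with the largest changes among the called, up to 8 in each direction (only 3 were raised), the 3 highest and 3 lowest per kb, the smallest p in each direction of each structural group, and those that failed the filter. Of each list, the 2 genes with the smallest p in each direction were named, with MYC and MRPS18C. ITGAM, CD14, LYZ, MPO, MRPS2, MRPS12, MRPS33, MRPS35, MRPL12, MRPL45, MRPS22, MRPS28, MRPL53, MRPL47, BABAM2, COPB2, SKA3 and NDUFB5 were chosen after their values were seen.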

Additional observations from a re-analysis of the deposited data

How the results depend on the processing

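The counts over all members, their median and the counts of the gene lists were recomputed under 15 other fits. So were the fold changes of the called members and of some other genes. The member counts were also taken without the members that share over 10% of their exonic bases (20 lower, 2 higher). Counts by subunit, origin, structural group and neighbour came from the main fit. Where such a count was given as 0, edgeR and DESeq2 were also used. No call turned to the other direction in any fit. Of the 25 lowered members, 12 were called lower in all 15 fits and 18 in the 11 that used every library, and of the 3 raised members MRPL24 alone was called in all 15. MRPL39 and MRPS22 lost their call with each library left out, and MRPL39 also with scaling by total reads or upper quartile, without a filter and in DESeq2. Lowered members numbered 25 in edgeR and 19 in DESeq2, which gave no adjusted p for 1 member, and raised members 4 and 2. With a library left out, lowered members ranged from 15 (without sh-IRF1 replicate 2) to 21, raised members from 2 to 6 (without NC replicate 1), members raised beyond 0.5 from 0 (without NC replicate 1) to 1, and the median from -0.16 (without sh-IRF1 replicate 1) to -0.071. Scaling by total reads gave 6 raised members. The cause was not tested. Assembly factors numbered 3 lower under scaling by total reads or upper quartile, and 3 lower and 2 higher in DESeq2. The log2 fold change of IRF1 ran from -0.86 to -0.78 over all fits. Same-numbered libraries did not deviate together (correlation -0.015 over 14120 genes). With 2 libraries per group, this cannot tell whether same-numbered libraries were prepared together. With the replicate block, 26 members were lower and 3 higher, beside 22.3% and 20.6% of all genes, and the median was -0.11. With longest transcripts in place of the union of exons, the highest and lowest NC means of tested members were 2750 and 2.68 per kb. With 2 libraries per group the spread of a single gene is poorly known, and members with under 100 normalized counts could not show changes of the usual size.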
